A study of Homo sapiens with 6 samples.

Results

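The comparison set the gemcitabine-resistant derivative of SW1990 against unsorted parental SW1990, gene by gene, with 1 library on each side. SW1990 is an established human pancreatic adenocarcinoma line. Per the labels, parental cells grew in DMEM/F-12 medium with fetal bovine serum, and the resistant derivative had 100 nM gemcitabine in the same medium. The labels do not say whether the derivative is 1 clone or a pool. Of the 19077 genes in the deposited table, 12066 had an FPKM (sequenced fragments per kilobase of transcript, corrected for library size) of at least 1 in either library, and these were the genes compared. The other 4 libraries of the series came from the same parental line after flow cytometry, 2 of cells positive and 2 of cells negative for the glycan epitope TRA-1-81. They are used here as further levels of the parental line, with titles numbered 0603 and 0610.

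With 1 library a side there was no replicate check and no test, so every difference is a description of these libraries. The differences are given as the log2 ratio of resistant over parental, computed as log2(FPKM + 1), and a gene is called higher or lower where that ratio reached 1, a 2-fold difference on that scale. All levels given for a gene are FPKM, and list medians are of log2 ratios. Because the drug was in the medium of the resistant cells alone, a lasting trait of the derivative and a response to the drug cannot be told apart. Handling, culture and library batch cannot be told apart from the group either.

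Gemcitabine is a deoxycytidine analogue. Cells take it up through nucleoside transporters and phosphorylate it, deoxycytidine kinase carrying out the first step, and the products block DNA synthesis and inhibit ribonucleotide reductase. Pancreatic adenocarcinoma is often described along an axis from a classical state, with gut and pancreatic lineage factors, to a basal-like or squamous state, with TP63 and keratins of stratified epithelium. Cultured epithelial cells can also carry interferon, NF-kB and stress programmes that have been described in drug-resistant tumour cells.

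Epithelial markers were high in both libraries, as the label of an epithelial line implies. The summed FPKM of 9 simple epithelial and ductal markers was 6047 in parental and 4712 in resistant cells, with 5302 to 6256 in the sorted libraries, so the resistant sum lay below all 5 others. KRT8, a keratin of simple epithelium, accounted for much of that sum, at 2302 in parental, 844 in resistant and 1674 to 2291 in sorted cells. EPCAM, an epithelial adhesion molecule, was at 265 in parental, 162 in resistant and 210.1 to 235 in sorted cells, and KRT19, a ductal keratin, at 1031 in parental, 1299 in resistant and 981 to 1092 in sorted cells. Markers of other cell types were near 0 with few exceptions. Of 11 leukocyte markers, 9 were under 1 FPKM in all 6 libraries and 2 of these were listed at 0 throughout. The leukocyte sum was 19.3 in parental, 54.6 in resistant and 22.6 to 29.3 in sorted cells, most of it from the lysosomal gene CD68. Of 11 fibroblast and stellate markers, 6 were under 1 FPKM throughout, and the sum was 5.54 in parental, 24.9 in resistant and 7.74 to 11.2 in sorted cells. COL1A1, a fibrillar collagen chain, gave 2.04 in parental, 14.1 in resistant and 2.27 to 3.11 in sorted cells, whereas its partner chain COL1A2 gave 0.038 in parental, 0.0212 in resistant and 0.0503 to 0.088 in sorted cells. The endothelial sum of 7 markers was 11 in parental, 4.36 in resistant and 7.76 to 10.8 in sorted cells. The acinar and islet sum of 10 markers was 5.85 in parental, 2.43 in resistant and 2.09 to 5.99 in sorted cells, so the resistant sum lay within the sorted range. In bulk RNA, fewer cells of a kind and less RNA per cell cannot be told apart, and the part of these markers in the results was not tested.

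Differences were broad and leaned towards higher levels in resistant cells. Of all measured genes, 1629 (13.5%) were called higher and 832 (6.9%) lower, so 66.2% of the called genes were higher. That lean depends on scaling. The log2 ratio of the median gene was 0.09, and quantile normalization shifted it to -0.07 and left 1277 genes higher and 1139 lower, 52.9% of them higher. At least 4-fold differences were found for 492 higher and 138 lower genes, and at least 16-fold differences for 65 and 9. By level, the share called higher was 20.3% among 3249 genes with a mean FPKM under 5 and 9.61% among 864 genes at 100 or more, while the share called lower was 6.71% and 8.22%. Judged roughly from short genes, 3 fragments on 1 kb correspond to an FPKM near 0.182 for the parental library and 0.129 for the resistant one. Values near these are imprecise.

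**Figure D1:**
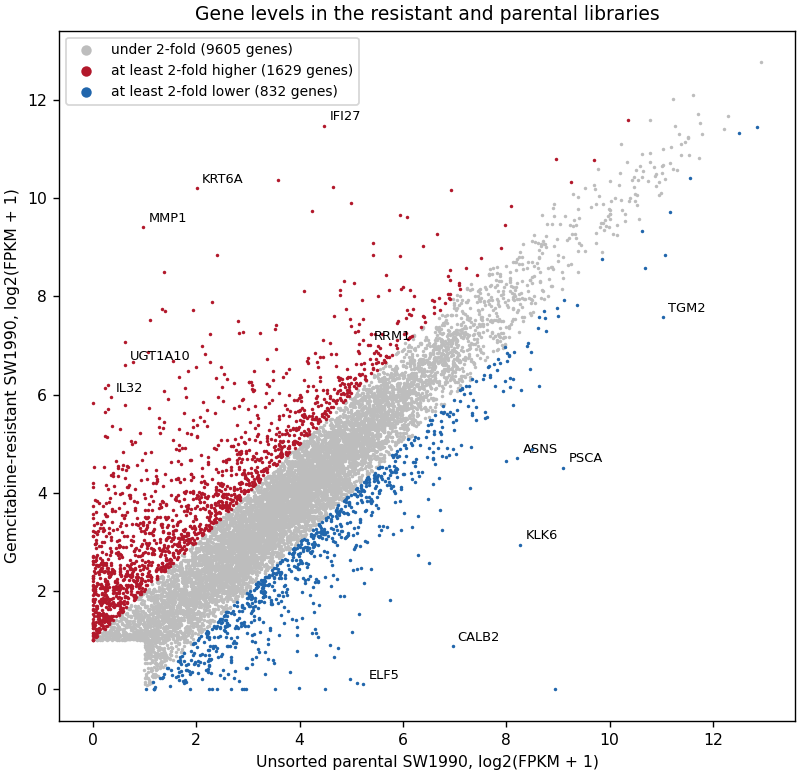
Each point is 1 of the 12066 measured genes, with its level in unsorted parental cells on the horizontal axis and in resistant cells on the vertical axis, both as log2(FPKM + 1). The 1629 genes at least 2-fold higher and the 832 at least 2-fold lower lie on either side of a grey band, and genes such as MMP1, KRT6A and IFI27 stand far above it while CALB2 and ELF5 stand far below.

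The sorted parental libraries often differed from the unsorted parental one. Variation of the line, sorting, culture, handling and library batch cannot be told apart in those differences. Of the 1629 higher genes, 1252 (76.9%) had all 4 sorted libraries between the unsorted parental and the resistant value, and in 111 (6.81%) at least 1 sorted library reached the resistant value. Of the 832 lower genes, 554 (66.6%) had all sorted libraries between and in 85 (10.2%) a sorted library reached the resistant value. A stricter count, at least 2-fold away from each of the 5 parental-line libraries, held 688 genes higher (5.7%) and 262 lower (2.17%). With the sorted mean as reference, 995 genes were called higher and 561 lower. The counts in each gene list below stand beside 13.5% higher and 6.9% lower among all measured genes, and a list near these shares does not stand apart. Presence and absence differed too: 189 genes had under 1 FPKM in parental and at least 5 in resistant cells, 46 of them under 1 in every sorted library, and 47 had at least 5 in parental and under 1 in resistant cells, 13 of them at least 5 in every sorted library.

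**Figure D2:**
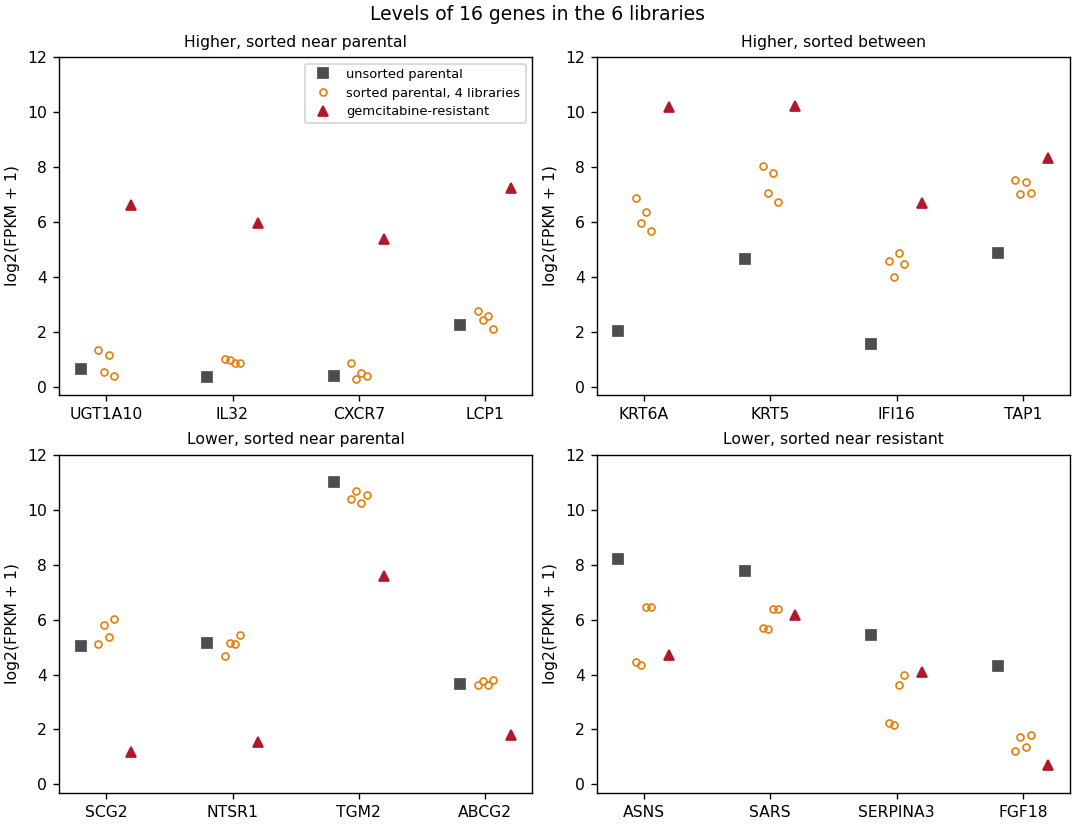
The panels show log2(FPKM + 1) of 16 genes in the unsorted parental library (squares), the 4 sorted parental libraries (open circles) and the resistant library (triangles). For UGT1A10 and SCG2 the 5 parental-line libraries lie together and the resistant one apart, and KRT6A and TAP1 have the sorted libraries between. For ASNS and SARS the sorted libraries lie around the resistant level, and for SERPINA3 they lie below it.

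On the log2 scale, the widest gaps between the resistant library and the nearest of the 5 parental-line libraries were those of UGT1A10, IL32, MMP1, CCL26, CXCR7 and LCP1, and MMP1 and CCL26 are described with their families. UGT1A10, a glucuronosyltransferase that conjugates small molecules for export, had 0.542 in parental, 96 in resistant and 0.311 to 1.54 in sorted cells. Its neighbour UGT1A6, whose transcript shares all but its first exon, had 0.00029 in parental, 55.5 in resistant, 6.69 and 6.36 in positive and 0.663 and 0.618 in negative sorted cells. Because the UGT1A transcripts share those exons, the split between them is uncertain. IL32, a proinflammatory cytokine, had 0.278 in parental, 60.9 in resistant and 0.813 to 1.02 in sorted cells. The resistant value of IL32 was far above all 5 parental-line values, and the same held for the next genes. CXCR7, a scavenging receptor for the chemokine CXCL12, had 0.298 in parental, 40.0 in resistant and 0.216 to 0.795 in sorted cells. LCP1, an actin-bundling protein of leukocytes that many carcinomas also carry, had 3.79 in parental, 150.1 in resistant and 3.31 to 5.77 in sorted cells. GJA1, the gap junction protein connexin 43, had 0.318 in parental, 19.3 in resistant and 0.554 to 0.724 in sorted cells. For LCP1 and GJA1 too, no parental-line library came near the resistant one.

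More genes of this kind encode secreted or carrier proteins. SERPINF1, a secreted serpin with antiangiogenic activity, had 0.45 in parental, 38.4 in resistant and 0.409 to 1.09 in sorted cells. NOV, a matricellular protein of the CCN family, had 1.61 in parental, 65.8 in resistant and 1.47 to 4.34 in sorted cells, and FABP4, a fatty acid carrier best known from adipocytes, was listed at 0 in parental cells and had 12.2 in resistant cells. The nearest parental-line library for NOV was thus still far below the resistant one. LRRN1, a leucine-rich repeat membrane protein, had 1.45 in parental and 36.2 in resistant cells but only 0.0636 to 0.158 in the sorted libraries, below the unsorted parental one. Several genes passed from under 1 FPKM in parental cells to a high level while the sorted libraries lay between. ECM1, a secreted matrix protein, had 0.72 in parental, 101 in resistant and 5.69 to 14.9 in sorted cells. TCN1, a vitamin B12 carrier of secretions, had 0.531 in parental, 54.1 in resistant and 4.09 to 7.68 in sorted cells. KYNU, kynureninase of tryptophan breakdown, had 0.235 in parental, 51.3 in resistant and 4.2 to 8.04 in sorted cells. In each of these 3 the resistant value lay above every other library.

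Among genes that handle the drug and supply nucleotides, most differed by less than 2-fold. Of 26 listed and measured, 4 were higher and 1 lower, against 13.5% and 6.9% of all measured genes, and the median log2 ratio was 0.22. RRM1, the large subunit of ribonucleotide reductase, had 39.2 in parental, 127 in resistant and 46.9 to 59 in sorted cells, the resistant value standing above all 5 others. CDA, the deaminase that inactivates gemcitabine, had 20.1 in parental, 81 in resistant and 24.3 to 45.8 in sorted cells. TYMP, thymidine phosphorylase, had 4.69 in parental, 69.8 in resistant and 19.4 to 41.5 in sorted cells. For RRM1, CDA and TYMP alike the sorted libraries lay between, so the difference from them was smaller than that from unsorted cells. The log2 ratios against the sorted mean were 1.24 for RRM1, 1.22 for CDA and 1.22 for TYMP. DCK, the activating kinase, had 18.2 in parental, 9.57 in resistant and 15.8 to 17.5 in sorted cells, and RRM2B, the p53-inducible small subunit of ribonucleotide reductase, had 16.2 in parental, 8.33 in resistant and 13.7 to 19.2 in sorted cells. Both resistant values were the lowest of the 6, though neither ratio reached 2-fold. UPP1, uridine phosphorylase, had 108 in parental, 48.3 in resistant and 43.8 to 70.0 in sorted cells, so the resistant value fell within the sorted range.

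Drug efflux transporters of the ABC family went in both directions. Of 11 measured from a list of 15, 5 were higher and 3 lower. The median log2 ratio of 0.88 turned to -0.24 against the sorted mean and was 0.09 with no filter on low values. ABCC5, an exporter of nucleotide analogues and cyclic nucleotides, had 7.58 in parental, 66.7 in resistant and 9.7 to 15.3 in sorted cells. ABCG2, an efflux pump used as a marker of side population cells, had 11.4 in parental, 2.48 in resistant and 11.2 to 13 in sorted cells, and ABCA3, a lipid transporter, had 6.78 in parental, 0.359 in resistant and 4.2 to 7.3 in sorted cells. The resistant library was the highest of the 6 for ABCC5 and the lowest for ABCG2 and ABCA3. The sterol transporters ABCA1 and ABCG1 were low in every library, ABCG1 with 0.188 in parental, 1.91 in resistant and 1.84 to 3.33 in sorted cells, where the sorted libraries were close to or above the resistant one.

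**Figure D3:**
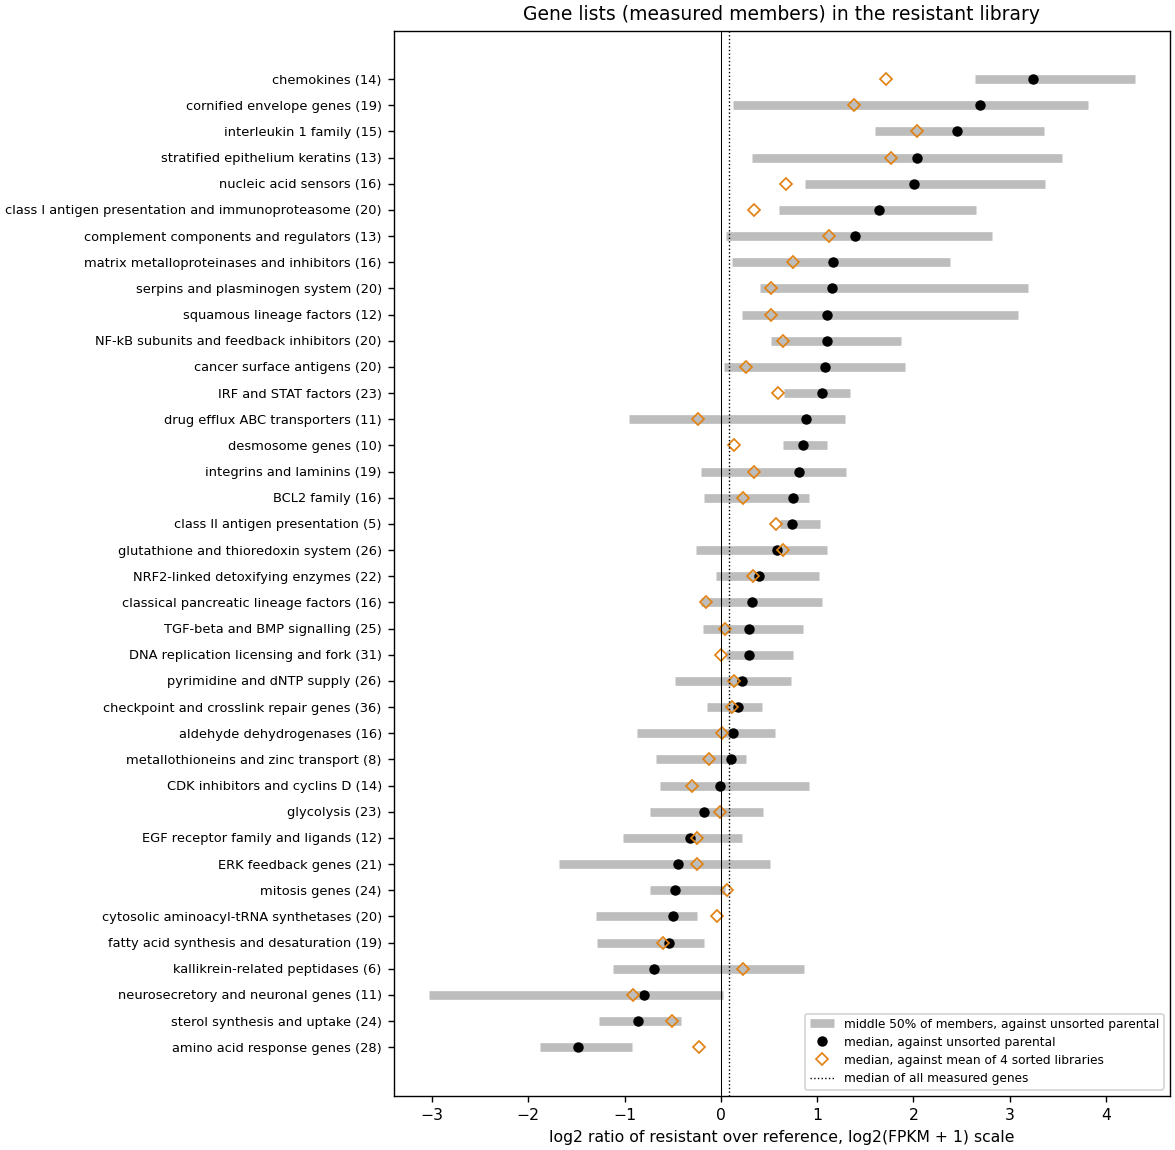
For each gene list the black point is the median log2 ratio of resistant over unsorted parental cells, the grey bar spans the middle 50% of measured members, and the open diamond is the median against the mean of the 4 sorted libraries, all on the log2(FPKM + 1) scale with the number of measured members in brackets. Chemokines (3.25) and cornified envelope genes (2.69) stand at the top and amino acid response genes (-1.48) at the bottom, where the diamond is close to 0.

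Keratins and envelope proteins of stratified squamous epithelium were among the groups that differed by the most. Of 13 measured stratified keratins (17 listed), 7 were higher and 1 lower, with a median of 2.04, or 1.77 against the sorted mean. The median was 0.47 with no filter on low values and 0.70 with a pseudocount of 5. Of the 13, 6 were at least 2-fold above each of the 5 parental-line libraries. KRT5, a basal-layer keratin, had 24.1 in parental, 1201 in resistant and 106 to 263 in sorted cells. KRT6A, a keratin of wounded and hyperproliferative epithelium, had 3.02 in parental, 1173 in resistant and 49.3 to 115 in sorted cells, and KRT17, which is often found with it, had 11 in parental, 1317 in resistant and 91.2 to 170.3 in sorted cells. The sorted libraries held clearly more of all 3 than unsorted cells and far less than resistant ones. KRT6A has near-identical relatives, so its share of their reads is uncertain. KRT80, an exception, had 95 in parental, 31.3 in resistant and 48 to 60.2 in sorted cells, the resistant value being the lowest of the 6. KRT16 had 17.4 in parental, 8.88 in resistant and 3.27 to 8.72 in sorted cells, so that unsorted parental cells stood highest.

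Cornified envelope genes behaved like the keratins. Of 32 listed, 19 were measured, and of these 12 were higher and 3 lower, with 10 at least 2-fold above every parental-line library. The median was 2.69, or 1.38 against the sorted mean, and 0.53 with no filter on low values. Members under 1 FPKM in unsorted parental cells, such as SPRR2A and SPRR2D, passed the filter only through the resistant library. SPRR2A, a small proline-rich envelope precursor, had 0.536 in parental, 134 in resistant and 4.31 to 10.8 in sorted cells, and SPRR2D of the same cluster had 0.184 in parental, 68.8 in resistant and 0.836 to 2.54 in sorted cells. CSTA, the protease inhibitor cystatin A, had 1.54 in parental, 213 in resistant and 4.28 to 12.8 in sorted cells. SPRR2 genes are close copies of each other, which leaves the split among them uncertain, but each stood above all parental-line libraries. PPL (periplakin) and FLG (filaggrin), which also belong to the envelope, were lower, PPL at 86.2 in parental, 33.9 in resistant and 66.6 to 77.3 in sorted cells and FLG at 7.79 in parental, 2.26 in resistant and 3.31 to 8.18 in sorted cells. The resistant value was the lowest of the 6 for both genes.

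Lineage factors of the squamous state differed in the same direction as the keratins. Of 12 measured (15 listed), 7 were higher and 0 lower, beside 13.5% and 6.9% of all measured genes, the median being 1.10, or 0.52 against the sorted mean. TP63, the master factor of basal epithelium, had 0.206 in parental, 34.3 in resistant and 3.09 to 8.15 in sorted cells. TRIM29, a TP63-linked gene of basal cells, had 1.74 in parental, 59.4 in resistant and 5.07 to 10.1 in sorted cells, and SNAI2, a zinc finger repressor of basal and mesenchymal programmes, had 9.39 in parental, 104 in resistant and 13 to 20.9 in sorted cells. All 3 were highest in resistant cells, with the sorted libraries between. ZBED2 and TFAP2A were the lowest members, TFAP2A at 19.8 in parental, 11 in resistant and 17.2 to 21.7 in sorted cells. Desmosome genes, which anchor these keratins, gave 4 higher and 1 lower of 10 measured (14 listed; median 0.85, or 0.14 against the sorted mean). DSG3, a desmoglein of basal layers, had 0.244 in parental, 13 in resistant and 0.38 to 0.869 in sorted cells, and the plakophilin PKP1 had 0.00578 in parental, 5.57 in resistant and 0.17 to 0.338 in sorted cells. PKP2, the plakophilin of simple epithelium, had 42.8 in parental, 18.7 in resistant and 44.3 to 53.6 in sorted cells, the resistant value lying below all 5 others.

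Factors of the classical pancreatic lineage showed no common direction. Of 16 measured (23 listed), 5 were higher and 1 lower, and the median of 0.33 turned to -0.16 against the sorted mean and to -0.03 after quantile normalization. FOXA1, a pioneer factor of endoderm, had 1.79 in parental, 8.09 in resistant and 3.75 to 4.45 in sorted cells. ELF5, an ETS factor of secretory epithelium, had 36.5 in parental, 0.0761 in resistant and 2.89 to 6.46 in sorted cells. ELF5 had the lowest ratio of the listed lineage factors, and the sorted libraries were also well below unsorted parental cells. SPDEF, a factor of mucous cells, had 7.12 in parental, 17.4 in resistant and 22.8 to 30.4 in sorted cells, so that it was higher than unsorted but lower than all sorted cells.

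SPRR2A also served to show a promoter of the squamous group that holds an AP-1 motif, the binding sequence of JUN and FOS factors. The motif was searched as TGANTCA, with N for any base, in the RefSeq promoters of GRCh38.p14, from 250 bases before to 50 bases after each gene's start, on both strands. It occurred in 7.76% of 27305 promoters, in 4.65% of the 9856 measured genes with a promoter, in 8.66% of 1235 genes called higher, in 11.8% of 515 at least 2-fold above every parental-line library and in 5.84% of 651 called lower. The 250 bases before the start of SPRR2A (minus strand, chr1:153057513-153057762, GRCh38.p14) are written 5′ to 3′ with the motif in capitals.
SPRR2A: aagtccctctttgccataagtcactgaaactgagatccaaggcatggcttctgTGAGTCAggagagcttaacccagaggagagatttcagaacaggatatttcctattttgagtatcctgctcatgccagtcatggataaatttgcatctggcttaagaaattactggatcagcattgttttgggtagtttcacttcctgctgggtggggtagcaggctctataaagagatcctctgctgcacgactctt
The match begins 197 bases before the start. SPRR1B, MMP10 and SERPINB2 also had the motif in their promoters, as did FLG, which was lower in resistant cells. KRT5, TP63, DSG3 and PKP1 had no match. The share was not computed for the keratin and envelope lists. A match describes letters and does not show that a factor was bound.

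Proteases that cut matrix differed along with the squamous group. Of 16 measured matrix metalloproteinases and their inhibitors (21 listed), 10 were higher and 1 lower (median 1.16, or 0.75 against the sorted mean), and 6 were at least 2-fold above every parental-line library. MMP1, interstitial collagenase, had 0.967 in parental, 678 in resistant and 19 to 21.6 in sorted cells. MMP13, collagenase 3, had 1.64 in parental, 208 in resistant and 6.89 to 10.8 in sorted cells, and MMP10, stromelysin 2, had 0.0193 in parental, 22.2 in resistant and 0.597 to 1.31 in sorted cells. These genes lie together on chromosome 11. Each was highest in resistant cells by a wide margin. The membrane-type MMP15 and MMP24 were the lowest members, MMP15 at 15.3 in parental, 7.45 in resistant and 14.1 to 15.3 in sorted cells and MMP24 at 2.73 in parental, 0.708 in resistant and 1.88 to 2.31 in sorted cells.

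Of 20 measured serpins and genes of the plasminogen system (21 listed), 11 were higher and 1 lower, with a median of 1.16, or 0.52 against the sorted mean. PI3, the elastase inhibitor elafin, had 6.0 in parental, 179 in resistant and 11.2 to 20.4 in sorted cells. SERPINB2, plasminogen activator inhibitor 2, had 15.9 in parental, 275 in resistant and 54.7 to 78.2 in sorted cells. The acute-phase serpin SERPINA3 was the exception among them, with 42.9 in parental, 16.1 in resistant and 3.48 to 14.9 in sorted cells, below unsorted parental cells but above every sorted library. Kallikrein-related peptidases divided, with 2 higher and 2 lower of 6 measured (15 listed) and a median of -0.69 that turned to 0.23 against the sorted mean. KLK13 had 1.3 in parental, 15.5 in resistant and 0.634 to 1.45 in sorted cells and KLK6, a trypsin-like protease found at raised levels in several carcinomas, had 307 in parental, 6.71 in resistant and 55.7 to 68.4 in sorted cells. Thus the resistant library was the highest for KLK13 and the lowest for KLK6.

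Cell adhesion receptors differed in both directions. Of 19 measured integrins and laminins (21 listed), 8 were higher and 4 lower, the median being 0.81, or 0.34 against the sorted mean. ITGA5, the alpha chain of the fibronectin receptor, had 0.993 in parental, 14.8 in resistant and 5.1 to 7.28 in sorted cells, the highest of the 6 in resistant cells. ITGA3, an alpha chain of laminin receptors, had 266 in parental, 110.0 in resistant and 214 to 245 in sorted cells, the resistant value lying below all 5 others. LAMA5 had 63.5 in parental, 19.7 in resistant and 112 to 152 in sorted cells. The sorted libraries stood above unsorted parental cells for LAMA5, so the difference from them was wider.

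Genes of interferon response and antigen presentation were higher, while the sorted libraries stood between and often close to the resistant one. Of 16 measured nucleic acid sensors (18 listed), 11 were higher and 0 lower, and the median of 2.01 became 0.68 against the sorted mean. IFI16, a sensor of cytosolic and nuclear DNA, had 1.95 in parental, 102 in resistant and 14.9 to 28.4 in sorted cells. OAS1, an enzyme activated by double-stranded RNA, had 6.48 in parental, 153 in resistant and 59.6 to 73.5 in sorted cells, and its relative OAS2 had 3.01 in parental, 93.3 in resistant and 34.1 to 48.4 in sorted cells. The resistant value was the highest of the 6 for all 3. IRF and STAT factors with their receptors gave 12 higher and 0 lower of 23 measured (24 listed; median 1.05, or 0.60 against the sorted mean). The interferon gamma receptor chain IFNGR1 had 16 in parental, 77.6 in resistant and 26.4 to 28.6 in sorted cells, with resistant cells highest. IRF7 had 2.17 in parental, 13.2 in resistant and 17.2 to 24.3 in sorted cells, so it was higher than in unsorted cells but below all 4 sorted libraries.

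Class I antigen presentation gave 13 higher and 0 lower of 20 measured, with a median of 1.64 that became 0.34 against the sorted mean. None of the 20 was 2-fold above each of the 5 parental-line libraries. HLA-B, a class I heavy chain, had 31.1 in parental, 957 in resistant and 281 to 536 in sorted cells, a value that depends on how reads are shared among near-identical HLA genes. TAP1, a peptide transporter subunit, had 28.2 in parental, 318 in resistant and 128 to 181 in sorted cells, and B2M, the class I light chain, had 499.9 in parental, 1766 in resistant and 822 to 1033 in sorted cells. For these genes unsorted parental cells stood lowest and the sorted libraries between. CANX (calnexin), which also folds other glycoproteins, had 400.1 in parental, 317 in resistant and 346 to 360.2 in sorted cells, the lowest resistant ratio of the list. Class II presentation was mostly unmeasured: 5 of 11 listed genes passed the filter, 2 were higher and 0 lower, and the median was 0.74, or 0.57 against the sorted mean. CTSS, the lysosomal protease that trims the invariant chain, had 0.25 in parental, 8.1 in resistant and 1.15 to 2.47 in sorted cells.

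The promoter of B2M holds 2 overlapping matches to an interferon response motif, searched as GAAANNGAA on both strands. This motif occurred in 8.29% of all promoters and in 6.4% of those of measured genes, against 8.66% of genes called higher and 5.84% of genes called lower. In the class I list 9 of 17 promoters held it (52.9%), as did 4 of 11 among the sensors (36.4%). The 250 bases before the B2M start (plus strand, chr15:44711267-44711516, RefSeq GRCh38.p14) have the matches in capitals.
B2M: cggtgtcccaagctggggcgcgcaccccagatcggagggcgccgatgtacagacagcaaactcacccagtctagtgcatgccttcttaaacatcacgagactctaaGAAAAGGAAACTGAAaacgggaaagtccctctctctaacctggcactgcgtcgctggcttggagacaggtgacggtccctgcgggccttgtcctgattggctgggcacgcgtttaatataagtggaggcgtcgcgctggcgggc
The first match begins 144 bases before the start and the last 138. TAP1, HLA-F, IFI27 and IFITM3 also had matches, whereas IFI16, OAS1, HLA-B and IFNGR1 had none. No test of the differences between these shares was made.

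Chemokines gave the highest median of any list. Of 21 listed, 14 were measured, and all 14 were higher than in unsorted parental cells and above every sorted library, 8 of them by 2-fold or more (median 3.25, or 1.72 against the sorted mean). CCL26, which attracts eosinophils, had 0.173 in parental, 34.5 in resistant and 0.0656 to 0.473 in sorted cells. CCL20, the ligand of CCR6, had 6.06 in parental, 153 in resistant and 11.9 to 23 in sorted cells. CXCL1, a neutrophil attractant, had 0.668 in parental, 32.1 in resistant and 6.95 to 10.9 in sorted cells. Of these, CCL26 was near 0 in all parental-line libraries, whereas CCL20 and CXCL1 were intermediate in sorted cells. IL8, the prototype neutrophil chemokine, had 3.21 in parental, 45.5 in resistant and 10.2 to 18.3 in sorted cells, and CXCL5 had 1.12 in parental, 51.7 in resistant and 28.2 to 47.4 in sorted cells, where the sorted libraries came close to the resistant one.

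Interleukin 1 family genes were higher in 13 and lower in 0 of 15 measured (17 listed), with a median of 2.46, or 2.04 against the sorted mean, and 10 members at least 2-fold above every parental-line library. IL33, an alarmin released from damaged epithelium, was listed at 0 in parental cells and had 16.3 in resistant and 0.255 to 0.852 in sorted cells. CASP1, the protease that matures interleukin 1 beta, had 0.397 in parental, 21.7 in resistant and 2.14 to 4.04 in sorted cells, and the decoy receptor IL1R2 had 0.263 in parental, 13.9 in resistant and 1.66 to 2.85 in sorted cells. All parental-line libraries lay well below resistant cells for these 3. The inflammatory caspase CASP4 had 115 in parental, 81.5 in resistant and 49.8 to 58.1 in sorted cells, so the resistant value was below unsorted but above all sorted cells.

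NF-kB subunits and feedback inhibitors were higher in 11 and lower in 0 of 20 measured (21 listed; median 1.10, or 0.64 against the sorted mean). TNFAIP3, the A20 protein that ends NF-kB signals, had 2.4 in parental, 48.7 in resistant and 9.1 to 10.3 in sorted cells. BIRC3, an inhibitor of apoptosis induced by NF-kB, had 10.2 in parental, 77 in resistant and 19.4 to 25.8 in sorted cells, and the subunit RELB had 2.75 in parental, 19.7 in resistant and 8.15 to 12.5 in sorted cells. All 3 were highest in resistant cells with the sorted libraries between. IKBKB, a kinase of the pathway, had 10.5 in parental, 6.63 in resistant and 8.61 to 9.3 in sorted cells. Complement components and regulators gave 9 higher and 0 lower of 13 measured (16 listed; median 1.39, or 1.12 against the sorted mean). CLU, the secreted chaperone clusterin, had 2.18 in parental, 81.4 in resistant and 7.52 to 8.55 in sorted cells. CFB, complement factor B, had 3.48 in parental, 112 in resistant and 10.2 to 24.2 in sorted cells, and CFI, the protease that cuts C3b, had 0.344 in parental, 14.9 in resistant and 0.246 to 0.407 in sorted cells. For CFI all parental-line libraries were under 1 FPKM.

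Chemokine promoters were also searched for an NF-kB consensus match, as were those of 8 other lists. It was found in 5.72% of all promoters, 6.65% of those of measured genes, 9.72% of genes called higher, 5.07% of genes called lower and in 9 of 12 chemokine promoters (75%). Among NF-kB subunits and inhibitors 7 of 17 had it (41.2%). The 250 bases before the start of CXCL1 (plus strand, chr4:73869143-73869392, RefSeq GRCh38.p14) show 2 overlapping matches, 1 on each strand, in capitals.
CXCL1: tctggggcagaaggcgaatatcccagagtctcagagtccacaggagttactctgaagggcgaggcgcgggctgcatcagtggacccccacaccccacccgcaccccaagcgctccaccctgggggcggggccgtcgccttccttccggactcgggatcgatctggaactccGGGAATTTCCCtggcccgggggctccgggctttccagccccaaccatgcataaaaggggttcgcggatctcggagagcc
They begin 79 and 78 bases before the start. The neighbours CXCL2, CXCL3, CXCL5 and CXCL6, like CCL20, BIRC3, TNFAIP3 and IL32, also had a match. No match was found for CCL26, IL8, IL33 or IL1R2. CXCL1, CXCL2 and CXCL3 are close copies, so their promoters are not independent.

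Genes lower in resistant cells included those that make sterols and fatty acids. Of 24 sterol synthesis and uptake genes, 0 were higher and 9 lower, the median was -0.87, or -0.51 against the sorted mean, and 18 of the 24 were below all 5 parental-line libraries. TM7SF2, a sterol reductase, had 118 in parental, 26.2 in resistant and 62.1 to 85.3 in sorted cells. INSIG1, the membrane protein that helps hold back the factor SREBP when sterols are plentiful, had 114 in parental, 29 in resistant and 57.6 to 63.2 in sorted cells. Both were lowest in resistant cells. HMGCS1, the synthase before the rate-limiting step, was the exception with 50.2 in parental, 99.2 in resistant and 36.8 to 41.6 in sorted cells, the highest of the 6 in resistant cells but just under 2-fold. Fatty acid synthesis and desaturation genes gave 1 higher and 8 lower of 19 measured (20 listed; median -0.54, or -0.60 against the sorted mean). FADS2, the delta-6 desaturase, had 190.1 in parental, 49 in resistant and 109 to 133 in sorted cells, and SCD, which makes monounsaturated fatty acids, had 357 in parental, 116 in resistant and 243 to 292 in sorted cells. The desaturase relative FADS3 had 16.1 in parental, 35.1 in resistant and 11.9 to 13.5 in sorted cells, the only member called higher. A sterol response motif, searched as TCACNCCAC, was in 1 of 18 promoters of the sterol list (5.56%). It was in 1.13% of promoters of measured genes, 0.729% of genes called higher and 1.69% of genes called lower.

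Amino acid response genes, the targets of ATF4 in amino acid shortage and other stress, had the lowest median of any list. Of 28 measured (30 listed), 1 was higher and 20 lower, at a median of -1.48, but that median was -0.22 against the sorted mean and only 7 of the 28 were below all 5 parental-line libraries. ASNS, asparagine synthetase, had 295 in unsorted parental and 25 in resistant cells. In the sorted libraries ASNS was at 21.1 (0603 positive), 19.3 (0603 negative), 86.8 (0610 positive) and 86.7 (0610 negative), so the resistant value lay within the sorted range and unsorted parental cells stood apart. TRIB3, a pseudokinase induced by ATF4, had 108 in parental, 8.47 in resistant and 12.3 to 51.1 in sorted cells, and ALDH1L2, a mitochondrial folate enzyme, had 25.4 in parental, 3.73 in resistant and 1.95 to 7.79 in sorted cells. ALDH1L2 too was within the sorted range. ATF3, a stress factor, went the other way with 1.24 in parental, 7.85 in resistant and 1.48 to 2.23 in sorted cells.

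Cytosolic aminoacyl-tRNA synthetases, several of which ATF4 also drives, gave 0 higher and 7 lower of 20 (median -0.50, and -0.04 against the sorted mean). GARS, the glycyl synthetase, had 267 in parental, 80.2 in resistant and 65.6 to 130.0 in sorted cells, and SARS, the seryl synthetase, had 219 in parental, 71.6 in resistant and 49.7 to 82.5 in sorted cells. In both the resistant value fell within the sorted range. FARSA, the alpha chain of the phenylalanyl synthetase, was the highest member with 42.2 in parental, 81.5 in resistant and 54.9 to 67.8 in sorted cells.

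An amino acid response motif, searched as TGATGNAA on both strands, occurred in 3.67% of all promoters and 1.71% of those of measured genes. It was in 6 of 23 promoters of the amino acid response list (26.1%) and in 6 of 16 of the synthetases (37.5%). The share was 2.51% among genes called higher and 3.23% among genes called lower. The 250 bases before the ASNS start (minus strand, chr7:97872409-97872658, RefSeq GRCh38.p14) hold 1 match, in capitals, which begins 68 bases before the start.
ASNS: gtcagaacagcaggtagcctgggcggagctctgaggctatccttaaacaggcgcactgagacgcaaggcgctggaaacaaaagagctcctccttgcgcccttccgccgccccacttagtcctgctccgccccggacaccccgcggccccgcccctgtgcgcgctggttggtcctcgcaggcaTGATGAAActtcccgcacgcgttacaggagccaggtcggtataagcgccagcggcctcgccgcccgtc
ATF3, which differed in the opposite direction to ASNS, also had a match, as had CARS. TRIB3, GARS, SARS and FARSA had none.

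Redox enzymes were partly higher. Of 26 measured glutathione and thioredoxin genes (30 listed), 9 were higher and 1 lower, with a median of 0.58 against unsorted and 0.64 against sorted cells. GPX2, the gastrointestinal glutathione peroxidase, had 1.14 in parental, 182 in resistant and 14.7 to 41 in sorted cells. GGT1, which breaks down extracellular glutathione, had 1.71 in parental, 8.9 in resistant and 1.31 to 1.83 in sorted cells, and the transferase GSTA4 had 0.161 in parental, 2.77 in resistant and 0.508 to 0.949 in sorted cells. Each was highest in resistant cells. TXNRD1, thioredoxin reductase of the cytosol, had 104 in parental, 36.5 in resistant and 68.9 to 79.4 in sorted cells, the lowest of the 6. NRF2-linked detoxifying enzymes gave 6 higher and 2 lower of 22 measured (23 listed; median 0.40). The aldo-keto reductases AKR1C2 and AKR1C1, near-identical genes whose reads may be shared, had 0.654 and 14.5 and 0.92 and 6.53 in parental and resistant cells. NQO1, a quinone reductase and standard NRF2 target, had 189 in parental, 83.3 in resistant and 158 to 205 in sorted cells. Thus known NRF2 targets lay on both sides. An antioxidant response motif, searched as TGACNNNGC, was in 15.1% of promoters of measured genes, 14.3% of genes called higher and 14.6% of genes called lower. Its share was not computed for the redox lists.

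Of 16 measured aldehyde dehydrogenases (19 listed), 1 was higher and 4 lower, and the median of 0.12 became -0.08 after quantile normalization. ALDH3B1 had 82 in parental, 20.4 in resistant and 51.3 to 57.8 in sorted cells and stood lowest in resistant cells. None of 8 measured metallothionein and zinc transport genes (14 listed) was called; their median of 0.10 became -0.13 against the sorted mean and -0.03 after quantile normalization. MT2A, a metal-binding protein, had 919 in parental, 476 in resistant and 888 to 1015 in sorted cells, just under 2-fold. Glycolysis genes gave 1 higher and 5 lower of 23 (median -0.17). GAPDH, which is often taken as a reference gene, had 7333 in parental, 2786 in resistant and 4509 to 5142 in sorted cells, the lowest of the 6 in resistant cells, though its many processed copies make its level uncertain. ENO2, the neuronal enolase, had 32.4 in parental, 6.26 in resistant and 23.1 to 28.8 in sorted cells.

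Of 12 measured EGF receptor family genes (16 listed), 2 were higher and 4 lower, beside 13.5% and 6.9% of all measured genes, and the median of -0.32 became -0.25 against the sorted mean and 0.06 with no filter on low values. NRG1, neuregulin 1, the ligand of ERBB3, had 16.6 in parental, 102 in resistant and 47.6 to 55.9 in sorted cells, whereas ERBB3 itself had 30.3 in parental, 9.62 in resistant and 17.4 to 19.6 in sorted cells. The sorted libraries lay between for both. Among 21 measured ERK feedback genes (22 listed), 4 were higher and 8 lower (median -0.45, or -0.25 against the sorted mean). ETV1 and ETV5, ETS factors induced by ERK, had 6.92 and 0.354 and 45.3 and 7.84 in parental and resistant cells, with 1.47 to 2.8 and 19.2 to 37.6 in the sorted libraries. Resistant cells stood lowest for both. DUSP9 and DUSP10, phosphatases of MAP kinases, were higher, DUSP10 at 14.1 in parental, 48.8 in resistant and 21.9 to 28.4 in sorted cells.

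TGF-beta and BMP signalling gave 5 higher and 3 lower of 25 measured (27 listed; median 0.30, or 0.04 against the sorted mean), beside 13.5% and 6.9% of all measured genes. FST, the activin antagonist follistatin, had 2.17 in parental, 38.4 in resistant and 5.32 to 12.5 in sorted cells. INHBB, an activin subunit, had 19.5 in parental, 1.09 in resistant and 5.4 to 7.84 in sorted cells, and BMP2 had 0.0577 in parental, 9.4 in resistant and 0.62 to 0.877 in sorted cells. ID3, a direct BMP target, had 4.37 in parental, 60.9 in resistant and 14 to 22.4 in sorted cells, and NOG, the BMP antagonist noggin, had 7.66 in parental, 1.17 in resistant and 4.68 to 7.68 in sorted cells. Hence the antagonist FST and the ligand BMP2 were highest in resistant cells, and the ligand subunit INHBB and the antagonist NOG were lowest.

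Genes of the cell cycle differed little as groups. Of 31 DNA replication genes, 5 were higher and 0 lower, and of 36 checkpoint and crosslink repair genes 3 were higher and 0 lower, beside 13.5% and 6.9% of all measured genes. Their medians of 0.29 and 0.18 became 0.00 and 0.12 against the sorted mean. None of 24 mitosis genes was called; their median of -0.47 turned to 0.06 against the sorted mean. CCNE1, cyclin E1, which drives entry into S phase, had 6.85 in parental, 27.7 in resistant and 8.31 to 13.8 in sorted cells. RBBP8, the CtIP protein that starts DNA end resection, had 18.6 in parental, 55.6 in resistant and 17.3 to 23.3 in sorted cells. Both were highest in resistant cells. CDK inhibitors and D cyclins gave 4 higher and 2 lower of 14 measured (16 listed; median -0.01, or -0.30 against the sorted mean). CDKN1A, the p53 target p21, had 7.67 in parental, 88 in resistant and 19.2 to 54.4 in sorted cells, and CDKN1B, the inhibitor p27, had 50.6 in parental, 8.84 in resistant and 26.9 to 39 in sorted cells, the lowest of the 6.

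In the BCL2 family 3 of 16 measured members (19 listed) were higher and 1 lower (median 0.75, or 0.23 against the sorted mean), shares near those of all measured genes (13.5% and 6.9%). BCL2L1, which encodes the survival protein BCL-XL, had 251 in parental, 76.3 in resistant and 176 to 194 in sorted cells, and its proapoptotic relative BAX had 98.9 in parental, 55 in resistant and 96.7 to 111 in sorted cells. BCL2A1, a survival member induced by NF-kB, was listed at 0 in parental cells and had 4.87 in resistant cells, with 0 to 0.0336 in sorted ones. PMAIP1, the BH3-only protein NOXA, had 9.56 in parental, 37.9 in resistant and 11 to 18.7 in sorted cells. Survival members therefore lay on both sides, BCL2L1 lowest and BCL2A1 highest in resistant cells.

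Surface and secretory genes lay on both sides, and some that parental cells carried at high levels were near 0 in resistant cells. Of 20 measured cancer surface antigens (26 listed), 11 were higher and 3 lower (median 1.08, or 0.26 against the sorted mean). PSCA, a GPI-anchored antigen of prostate and pancreatic cancer, had 547 in parental, 21.8 in resistant and 217 to 254 in sorted cells. CD24, a mucin-like surface marker, had 2.82 in parental, 208 in resistant and 11.5 to 29.8 in sorted cells. The locus given for CD24 is on chromosome Y, so the origin of its reads, and with it its level, is uncertain. CDH3, P-cadherin, had 3.04 in parental, 40.5 in resistant and 6.27 to 10.7 in sorted cells. PSCA was lowest and CD24 and CDH3 were highest in resistant cells, and CEACAM6 had 50.2 in parental, 347 in resistant and 337 to 415 in sorted cells, where sorted and resistant cells overlapped. Of 11 measured neurosecretory and neuronal genes (28 listed), 1 was higher and 5 lower (median -0.80, or -0.91 against the sorted mean). SCG2, the granin secretogranin II, had 31.5 in parental, 1.24 in resistant and 33.7 to 64.1 in sorted cells. KISS1, the precursor of kisspeptin, had 53 in parental, 2.51 in resistant and 87.5 to 93.8 in sorted cells, and CALB2, calretinin, had 123 in parental, 0.834 in resistant and 34 to 54.7 in sorted cells. TUBB3, a beta tubulin of neurons that many carcinomas carry, went the other way with 7.19 in parental, 42.4 in resistant and 17.6 to 20.4 in sorted cells.

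Other genes also stood far below all parental-line libraries. NTSR1, the neurotensin receptor, had 34.5 in parental, 1.89 in resistant and 24.4 to 42.4 in sorted cells. TNFRSF6B, a soluble decoy receptor for FAS ligand, had 157 in parental, 16.2 in resistant and 119.7 to 217 in sorted cells. BPI, an antibacterial protein, had 33.4 in parental, 0.0875 in resistant and 9.6 to 32.5 in sorted cells. In each of these the resistant value was far below the lowest parental-line library. TM4SF18, a tetraspanin-like membrane protein, had 30.5 in parental, 0.159 in resistant and 11 to 18.7 in sorted cells, and C6orf15 had 23 in parental, 0.881 in resistant and 30.9 to 36.1 in sorted cells. CAPNS1 and AMMECR1L were listed at 0 in resistant cells alone, with 488 and 10.6 in parental cells. Since 7 genes of at least 5 FPKM in 5 libraries were listed at exactly 0 in the remaining one, such a 0 may be a failed estimate, and no fold is given. FGF18, a fibroblast growth factor, was low in sorted cells too, at 18.9 in parental, 0.627 in resistant and 1.33 to 2.48 in sorted cells. TNFSF18, a ligand of the TNF superfamily, had 25.7 in parental and 0.802 in resistant cells, with 1.15 and 1.27 in the positive and negative libraries 0603 and 7.45 and 9.19 in those of 0610.

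In absolute terms, some of the most abundant transcripts differed by the most. TGM2, tissue transglutaminase, had 2079 in parental, 189.9 in resistant and 1216 to 1640.0 in sorted cells. HMGA1, an architectural chromatin protein, had 2134 in parental, 458 in resistant and 937 to 1134 in sorted cells, and S100A4, a calcium-binding protein of motile cells, had 1653 in parental, 378 in resistant and 2132 to 2877 in sorted cells. All 3 were lowest in resistant cells. IFI27, an interferon-induced mitochondrial protein, had 21.2 in parental, 2841 in resistant and 1352 to 1453 in sorted cells, and IFITM3, which blocks virus entry, had 121 in parental, 1147 in resistant and 614 to 666 in sorted cells. S100A11 had 1305 in parental, 3077 in resistant and 1279 to 1582 in sorted cells. For IFI27 the sorted libraries lay between, whereas for S100A11 they stayed near unsorted parental cells. The translation genes RPS2, EEF1A1, RPS15A, RPS21 and TPT1 were also among the 10 largest losses in FPKM, at 4761 and 2722 for EEF1A1. Their many processed copies make them uncertain, and sorted cells had 2802 to 3074 of EEF1A1, near the resistant value.

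Genes that differed were not spread evenly along the chromosomes. In 465 windows of 5 Mb with at least 8 measured genes, window medians ran from -1.16 to 2.19, with the central 90% between -0.49 and 0.59. Between the sorted libraries of the same gate, window medians stayed within -0.15 to 0.24 for negative and -0.12 to 0.22 for positive cells. These pairs leave out the unsorted library, so they do not give the spread between it and the sorted ones. Some windows moved by more than that range when the sorted mean was the reference, as given below. The stretches below were put together after their values were seen. In the first 35 Mb of chromosome 12, 70 of 164 genes were lower (42.7%) and 9 higher, at a median of -0.90, or -0.68 against the sorted mean, and its 7 windows were all among the 9 lowest of the genome. The rest of chromosome 12 had a median of 0.01 over 492 genes. BCAT1, a branched-chain aminotransferase in one of the low windows, had 63.9 in parental, 11.1 in resistant and 54.9 to 68.1 in sorted cells. EPS8, an actin regulator, had 29.3 in parental, 9.47 in resistant and 30.1 to 34.4 in sorted cells. GAPDH, ENO2, CDKN1B and PKP2, given above, also lie in the first 35 Mb of chromosome 12.

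**Figure D4:**
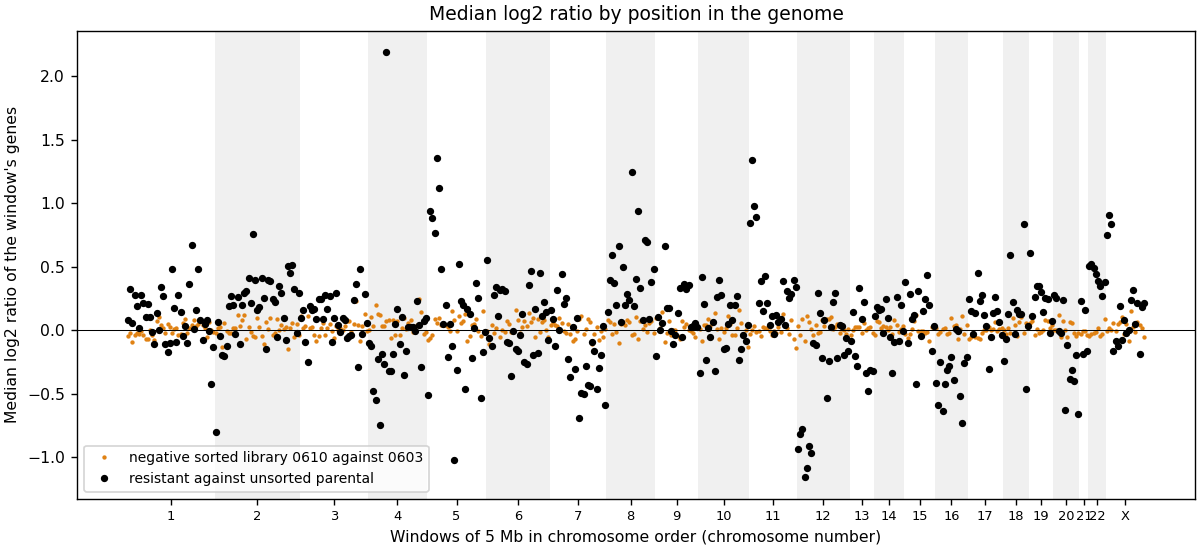
Each black point is the median log2 ratio of resistant over unsorted parental cells for the genes of a 5 Mb window, in chromosome order, and each small orange point is the same for the negative sorted library 0610 against 0603. Black points run from -1.16 to 2.19, with a run of low windows at the start of chromosome 12. Runs of high windows lie near the start of chromosome 5, after its first window, and at the start of chromosome 11. Orange points stay between -0.15 and 0.24 and do not involve the unsorted library.

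Stretches of higher genes lay near the starts of chromosomes 5 and 11. In the first 45 Mb of chromosome 5, 34 of 82 genes were higher (41.5%) and 4 lower, at a median of 0.94, or 1.03 against the sorted mean. These counts include its first window, whose 16 genes had a median of -0.51 with 2 higher and 3 lower, so most of the higher genes lay beyond the first 5 Mb. The rest of that chromosome had a median of -0.03. OSMR, the oncostatin M receptor, had 15.3 in parental, 61.1 in resistant and 12.3 to 16.1 in sorted cells, and SKP2, the F-box protein that marks p27 for degradation, had 13.8 in parental, 58.3 in resistant and 17.4 to 21.9 in sorted cells. For both the parental-line libraries lay close together, well below the resistant one. In the first 20 Mb of chromosome 11, 64 of 139 genes were higher (46.0%) and 2 lower, at a median of 0.92, or 0.55 against the sorted mean, and the rest of the chromosome had 0.17. The window at 0 to 5 Mb of this stretch, which holds RRM1, had a median of 0.84 over 60 genes. Against the sorted mean that window had only 0.17, less than the stretch as a whole. The highest single window, at 70 to 75 Mb of chromosome 4, had a median of 2.19 over 16 genes, or 0.64 against the sorted mean, and holds the CXCL genes and IL8. Of its 16 genes, 9 had a log2 ratio above 0 and 7 below. CXCL1, CXCL3 and CXCL6 were under 1 FPKM in unsorted parental cells. They passed the filter only through the resistant library, so the window's median depends on the filter. DCK lies in the same window and was lower, as given above.

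The third lowest window, at 80 to 85 Mb of chromosome 5, had a median of -1.02 against unsorted cells but -0.13 against the sorted mean. It holds EDIL3, an integrin ligand, with 14.4 in parental, 0.725 in resistant and 12.1 to 15.8 in sorted cells, and HAPLN1, a hyaluronan link protein, with 6.42 in parental, 0.0084 in resistant and 15.8 to 24.1 in sorted cells. These 2 genes were lowest in resistant cells, whereas VCAN, versican, had 26.3 in parental, 11.1 in resistant and 9.88 to 19.7 in sorted cells, within the sorted range. Chromosome 16 had a median of -0.34 over 557 genes and -0.38 against the sorted mean, though its windows at 55 to 60 Mb and 65 to 70 Mb had medians of 0.01 and -0.01. DNA copy number was not measured.

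RRM1 lies within the chromosome 11 stretch (chromosome 11, 4115924 to 4160106, hg19). Of the 10 measured genes on each side of it, 14 were higher and 0 lower, at a median of 1.40, or 0.65 against the sorted mean. Of these 20 neighbours, 15 stood above all 5 parental-line libraries, 5 of them by at least 2-fold. They span 2920951 to 6495689 on chromosome 11. STIM1, the calcium sensor of the endoplasmic reticulum and the nearest neighbour on the lower side, had 5.51 in parental, 29.8 in resistant and 14 to 16.7 in sorted cells. TRIM21, an antibody receptor of the cytosol on the other side, had 2.74 in parental, 24.4 in resistant and 5.43 to 6.46 in sorted cells. Resistant cells stood highest for both. The TRIM genes of this cluster include interferon-stimulated members such as TRIM22, an antiviral factor at 0.409 in parental, 22.3 in resistant and 3.4 to 5.65 in sorted cells. NUP98, a nuclear pore protein, had 20.1 in parental, 43.3 in resistant and 25.3 to 27.8 in sorted cells. CARS, the cysteinyl-tRNA synthetase, had 45.7 in parental, 35.2 in resistant and 20.9 to 35.7 in sorted cells, and PHLDA2, an imprinted gene, had 12.3 in parental, 25.3 in resistant and 53.2 to 53.8 in sorted cells, below all sorted libraries. RRM1 itself had a log2 ratio of 1.67.

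**Figure D5:**
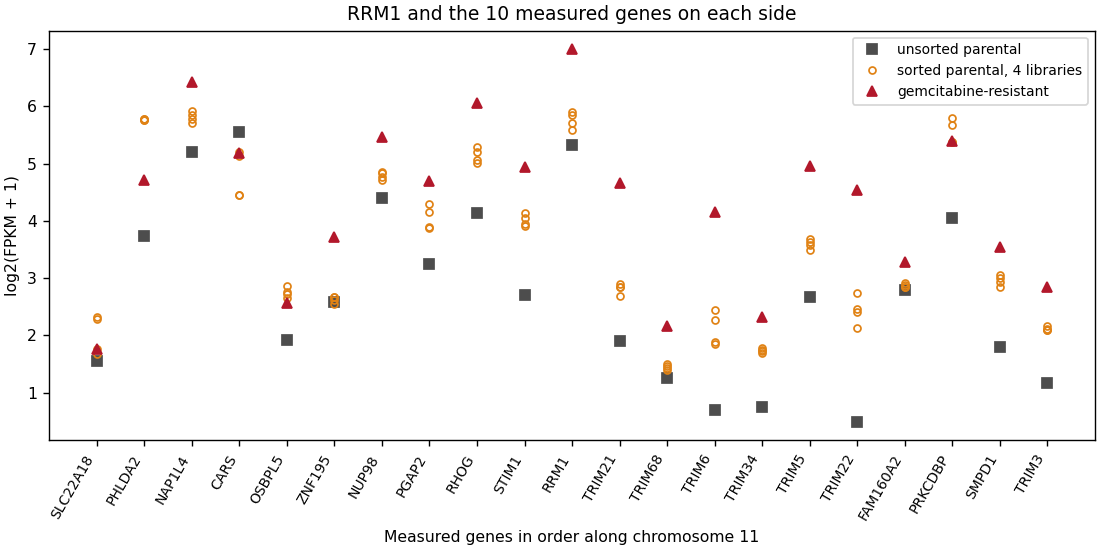
RRM1 and the 10 measured genes on each side, in their order along chromosome 11, with log2(FPKM + 1) in the unsorted parental library (squares), the 4 sorted libraries (open circles) and the resistant library (triangles). The triangles lie above all other points for RRM1 and 15 of the 20 neighbours, and CARS, OSBPL5, PHLDA2, PRKCDBP and SLC22A18 are the exceptions.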

How the data were processed

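RNA of 6 SW1990 libraries was sequenced. The authors deposited 1 table of gene values, whose header names no unit. The deposited values are read as FPKM, since Cufflinks 2.1.1 is named, per the submitters' processing notes, along with TopHat2 2.0.11, CASAVA 1.8.2 and hg19. Their settings are not given in the sources used. Of 19312 rows, 235 with a repeated symbol were left out (highest mean kept), leaving 19077 genes. From the deposited FPKM, log2 ratios were computed as log2(FPKM + 1) in Python 3.11.15 with pandas 2.3.3 and numpy 2.4.6, and plotted with matplotlib 3.10.9. Read counts were not recovered, so precision is known only roughly. Coordinates of genes are hg19, 1-based, and promoters are RefSeq's on GRCh38.p14, matched by gene name to 9856 of the 12066 measured genes.

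The 43 gene lists, the comparison and the naming rule were chosen with earlier results of these data known. Named genes are the widest gaps to all parental-line libraries, the largest FPKM gains and losses, genes under 1 FPKM on one side, the 3 highest and 2 lowest of each list, identity markers, genes beside RRM1 and those of the 3 highest and 3 lowest windows. Alternatives were quantile normalization, pseudocounts of 0.1 and 5, an FPKM minimum of 5, no filter, centring, summed repeats, exact zeros left out and the sorted mean as reference. The script was tested on simulated data with known folds. Some members of the lists are not reported here.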

Additional observations from a re-analysis of the deposited data

How the results depend on the processing

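No paired analysis was possible because the resistant and parental groups hold 1 library each; for the same reason no replicate could be left out. The count of higher genes went from 1629 to 777 with a pseudocount of 5 and to 995 against the sorted mean, and the count of lower genes from 832 to 397 with a pseudocount of 5. Genes 2-fold away from each of 5 parental-line libraries went from 688 to 298 higher with a pseudocount of 5, and from 262 lower to 100 with a pseudocount of 5 and to 409 with 0.1. The median over RRM1 and its 20 neighbours was 1.32 after quantile normalization, 1.55 and 1.07 with pseudocounts of 0.1 and 5, 1.67 with an FPKM of at least 5, 1.37 centred and 0.67 against the sorted mean. Against the sorted mean, these values past the 2-fold call or, for lists, with the larger medians changed sign: the medians of the ABC transporters (-0.24) and kallikreins (0.23), and the genes ABCG1 (-0.24), CEACAM6 (-0.11), IRF7 (-0.60), PRKCDBP (-0.15), SARS (0.16), SERPINA3 (1.09) and SPDEF (-0.54). Smaller values also changed sign, namely the medians of simple epithelial markers (-0.47), classical factors (-0.16), mitosis genes (0.06) and metallothioneins (-0.13) and the genes CARS (0.37), CASP4 (0.58), KRT16 (0.49), OSBPL5 (-0.19), PHLDA2 (-1.05), SLC22A18 (-0.24), TPT1 (0.27) and ZBED2 (0.55). The cause was not tested. The remaining 29 values of the main results stayed within 1.5 times the main count, or for the median around RRM1 within 1 SD over the sorted libraries. Those with no filter could not differ and show nothing about stability. A 2-fold call on this scale needs an FPKM of at least 1, and the genes around RRM1 were picked from measured ones. Depth limits genes of low FPKM. Genes under 1 FPKM in unsorted parental cells passed the filter only through the resistant library. With no filter, list medians were 0.47 for stratified keratins, 0.53 for cornified envelope genes and 0.54 for squamous factors. They were 0.56 for metalloproteinases and their inhibitors, 0.09 for ABC transporters and 2.61 for chemokines.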

Other observations

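The window at 35 to 40 Mb of chromosome 5 held several cytokine receptors and adaptors besides OSMR. IL7R, the interleukin 7 receptor chain, had 0.143 in parental, 12.2 in resistant and 0.703 to 1.41 in sorted cells. LIFR, the receptor of leukaemia inhibitory factor, had 0.758 in parental, 6.26 in resistant and 0.999 to 1.39 in sorted cells, and the endocytic adaptor DAB2 had 0.201 in parental, 4.76 in resistant and 0.307 to 0.364 in sorted cells. FYB, an adaptor of T cells, had 0.0283 in parental, 4.51 in resistant and 0.0695 to 0.231 in sorted cells. All 4 were highest in resistant cells. Housekeeping genes of the same window, such as the cohesin loader NIPBL with 6.3 in parental, 17.7 in resistant and 4.77 to 5.8 in sorted cells and the mTOR complex subunit RICTOR with 4.38 in parental, 9.62 in resistant and 3.31 to 4.88 in sorted cells, also stood highest there.

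At 20 to 25 Mb of chromosome 12, in the stretch of lower genes, lie the hepatic organic anion carriers. SLCO1B3, a carrier of bile acids and drugs, had 44 in parental, 21.9 in resistant and 45.4 to 48.9 in sorted cells, and SLCO1B7, which is close in sequence to it so that reads may be shared, had 11.1 in parental, 1.15 in resistant and 3.54 to 5.06 in sorted cells. Whole chromosomes with the highest medians were chromosome 22 at 0.43 over 301 genes (0.11 against the sorted mean) and chromosome 8 at 0.41 over 427 genes (0.20 against the sorted mean).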
